A study of Mus musculus with 12 samples.

Results

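The transcripts of the respiratory chain and ATP synthase were followed in the livers of ethionine-treated and untreated ob/ob mice, separately for the genes of the mitochondrial genome and for the nuclear genes. Members were chosen by symbol. They are the 13 protein genes of the mitochondrial genome and every nuclear protein-coding gene named Nduf, Sdha to Sdhd, Uqcr, Cox4 to Cox8 or Atp5, with at least 10 counts in 6 of the 12 libraries. Of 56205 genes in the table, 100 met this rule, 13 mitochondrial and 87 nuclear. The nuclear genes comprised 36 complex I subunits, 8 complex I assembly factors, 4 subunits of complex II, 8 of complex III, 14 of complex IV and 17 genes of complex V. Ndufa4 and Ndufa4l2 carry complex I names but were placed with complex IV, where the Ndufa4 protein is found. All 100 passed the low-count filter of the test. A further 7 protein-coding matches fell below the count minimum, among them the muscle or testis forms Cox6a2, Cox8b, Cox6b2, Cox7b2 and Cox8c.

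The respiratory chain passes electrons from NADH through complex I, or from succinate through complex II, to coenzyme Q, and on through complex III, cytochrome c and complex IV to oxygen. Complexes I, III and IV pump protons across the inner mitochondrial membrane, and ATP synthase (complex V) uses the gradient to make ATP. Complex II is built from nuclear genes alone, while the other complexes combine subunits made in the cytosol with subunits transcribed and translated inside the mitochondrion. Hepatocytes hold many mitochondria.

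The mice were homozygous for the ob mutation of leptin (B6.Cg-Lep ob/J) and therefore obese, in both groups. The methods give an age of 8 to 10 weeks at the start. The 6 FLO mice ate standard chow, and the 6 fibrotic mice ate the same chow and received DL-ethionine, an ethyl analogue of methionine. The group names fibrotic and FLO are those of the sample titles, and fibrosis itself was not assessed here. The sources disagree on the treatment. One label states a dose of 0.165% given in the water over 2 weeks, another an injected dose of 0.15%, and the methods 0.15% in the water over 1 week. RNA came from whole livers, 1 library per mouse, so fewer cells of a type and less RNA per cell cannot be told apart. The labels name males only, but the library labelled FLO replicate 3 held 3773 counts of Xist and 4 of Ddx3y, whereas the other 11 libraries held 0 to 4 and 556 to 977.

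Library totals spanned 17815568 to 20352675 counts with ethionine (fibrotic group) and 18275320 to 24814263 without it (FLO group). All 10 hepatocyte markers were present, with a summed level of 71239 to 116580 CPM (counts per 1e6 counts, after TMM scaling) in fibrotic and 100748 to 116624 CPM in FLO livers, and 3 were called lower and 1 higher. Kupffer cell and macrophage markers summed to 301 to 642 CPM in fibrotic and 249 to 282 CPM in FLO livers, and 7 of the 11 were called higher. Cholangiocyte markers summed to 96.6 to 297 CPM in fibrotic and 59.8 to 102 CPM in FLO livers, with 3 of the 6 that were tested called higher. Endothelial markers summed to 137 to 182 CPM with ethionine and 195 to 220 CPM without it, and 1 of 7 was called lower. Stellate cell and fibroblast markers summed to 228 to 430 CPM and 217 to 352 CPM, with 1 of 9 called higher and 1, Acta2, called lower. By the thresholds given below, 15.9% of all tested genes were called higher and 14% lower. The part of these cell types in the results below was not tested. FLO replicates 2 and 3 also held skeletal muscle transcripts, with muscle markers at 111 and 253 CPM against 0.930 to 11.0 CPM in the other libraries.

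The mitochondrial genes were lower in fibrotic livers as a group, while the nuclear genes went in both directions. The 13 mitochondrial genes took 4.90% of all counts in the lowest, 6.35% in the median and 7.83% in the highest fibrotic library. In FLO libraries the corresponding values were 7.23%, 8.42% and 10.1%, so the groups overlapped at their edges. The fibrotic mean was 6.46 ± 1.14% and the FLO mean 8.54 ± 1.07% (SD, n = 6 each). For the 87 nuclear genes together the share was 1.56 to 1.78% with ethionine and 1.23 to 1.38% without it, and these ranges were separate. Within each library, mitochondrial counts were 3.05 to 4.87 times the nuclear counts in fibrotic and 5.24 to 7.40 times in FLO livers. This ratio needs no scaling between libraries, and the lowest FLO value lay above the highest fibrotic one. After TMM scaling, whose factors were 0.965 to 1.20 in fibrotic and 0.913 to 0.963 in FLO libraries, the fibrotic nuclear sum was 15716 ± 1232 CPM and the FLO sum 13938 ± 767 CPM (SD, n = 6 each), and on this scale the groups overlapped.

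**Figure D1:**
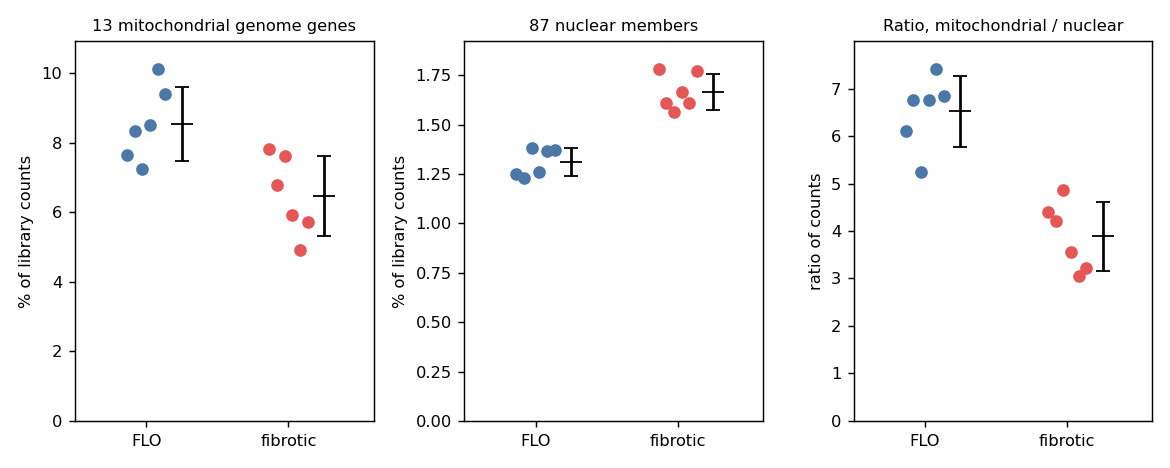
Share of library counts on the 13 mitochondrial genes and on the 87 nuclear members, in percent, and the ratio of the first to the second, for each library. Points are libraries, and black bars give the group mean ± SD (n = 6); the ratio was 3.05 to 4.87 in fibrotic and 5.24 to 7.40 in FLO livers.

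Genes were called at an adjusted p of 0.01 or less (edgeR quasi-likelihood test, Benjamini-Hochberg adjustment over 13416 genes) with an absolute log2 fold change over 0.5, fibrotic against FLO. Of the 100 members, 9 were called higher, all nuclear, where 15.9% of all tested genes were called higher. A further 10 were called lower, 8 of the 13 mitochondrial and 2 of the 87 nuclear genes, where 14% of all tested genes were called lower. At an adjusted p of 0.05 with no limit on the fold change, 33 members were higher against 27.3% of tested genes, again all nuclear. At the same threshold 23 were lower against 24.8% of tested genes, comprising 11 of the 13 mitochondrial and 12 of the 87 nuclear genes. The shares of all tested genes at an unadjusted p under 0.05, a limit used below for some lists, were not computed. They are at least these 27.3% and 24.8%. All fibrotic libraries lay above all FLO libraries for 14 members, all nuclear (15.3% of all tested genes). They lay below for 7, of which 4 were mitochondrial (15.1% of all tested genes). With the fold limit, 10.3% of the nuclear genes were higher, under the 15.9% of the whole table, and without it 37.9% were, above the 27.3%. The mitochondrial genes had a higher share of lower calls than the table. The median log2 fold change was -0.75 for the mitochondrial genes, 0.10 for the nuclear genes and 0.03 for all tested genes.

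**Figure D2:**
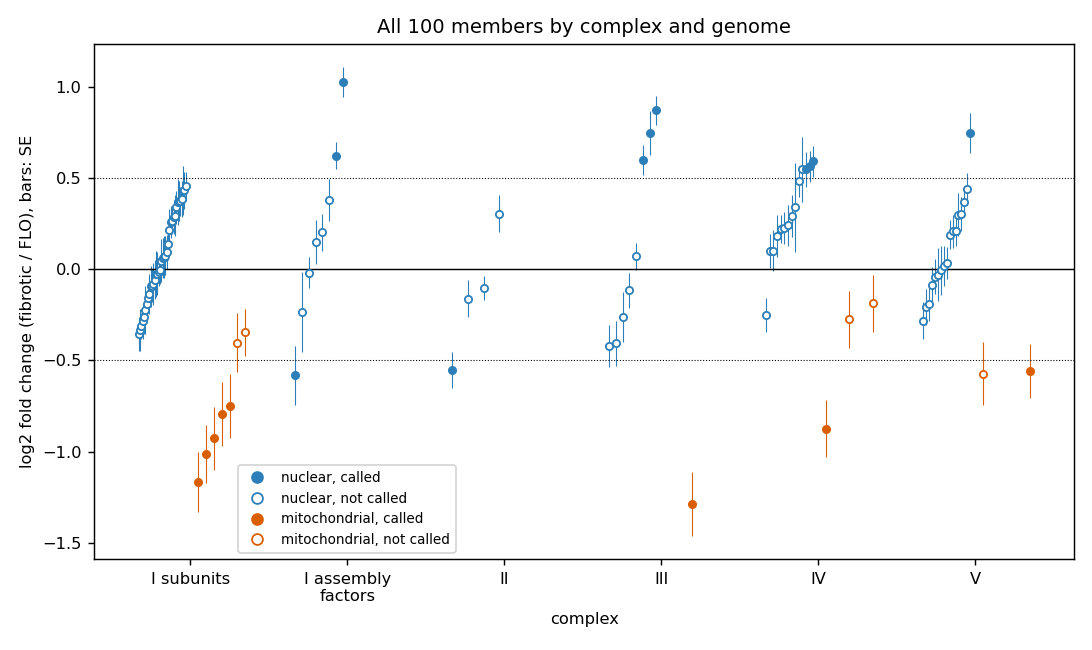
Log2 fold change (fibrotic against FLO, vertical axis) of all 100 members by complex, with bars giving the SE and dotted lines the fold limit of 0.5 in either direction. Nuclear genes are blue and mitochondrial genes orange, filled where called; every mitochondrial gene lies below 0, while the called nuclear genes are mostly above 0.5 in complexes III and IV and the complex I assembly factors.

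All 13 mitochondrial genes had negative fold changes, but their sizes differed from gene to gene. None was higher at an unadjusted p under 0.05 (edgeR), and DESeq2 and limma-voom also called 0 higher. Their summed level was 70344 to 77623 CPM in fibrotic replicates 1 to 3, 44290 to 52870 CPM in fibrotic replicates 4 to 6, and 76776 to 109682 CPM in FLO libraries. Replicates 4 to 6 thus stood apart from the rest of their group, and all of them lay below every FLO library. The lowest FLO library was replicate 3, and the next lowest, replicate 1, held 83750 CPM. The largest falls were those of mt-Cytb, the mitochondrial subunit of complex III, and mt-Nd6, the subunit of complex I encoded on the other strand. mt-Cytb (chrM:14145-15288 of GRCm38, plus strand) was at 2545 CPM in the lowest, 3904 in the median and 5120 in the highest fibrotic library, and at 7438, 9419 and 12358 CPM in FLO libraries. Every fibrotic library lay below every FLO library, and the log2 fold change was -1.29 ± 0.18 (SE, edgeR adjusted p = 2.17e-05). mt-Nd6 (chrM:13552-14070, minus strand) was at 443, 602 and 824 CPM in fibrotic and at 1024, 1404 and 1724 CPM in FLO libraries. Its groups did not overlap either, with a log2 fold change of -1.17 ± 0.16 (SE, edgeR adjusted p = 2.96e-05).

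Together with mt-Nd6, the other mitochondrial subunits of complex I belong to its membrane arm, which carries the proton pumps. mt-Nd2 (chrM:3914-4951) was at 1887, 2466 and 3430 CPM (lowest, median and highest) in fibrotic and at 4120, 5216 and 6011 CPM in FLO libraries. These ranges were separate, and mt-Nd2 fell by 1.02 on the log2 scale (SE 0.16, edgeR adjusted p = 8.26e-05). mt-Nd5, mt-Nd4l and mt-Nd4 were called lower with log2 fold changes of -0.93, -0.79 and -0.75, and each had a fibrotic library within the FLO range. For each of these genes the lowest FLO library was replicate 3, and the other FLO libraries lay above every fibrotic one. FLO replicate 3 is the library with the Xist counts and the most muscle transcripts, and the part of either here was not tested. The highest fibrotic library held 3268 CPM of mt-Nd5, for example, and the lowest FLO library 3113 CPM. mt-Nd3 at -0.40 (edgeR adjusted p = 0.0477) and mt-Nd1 at -0.35 (edgeR adjusted p = 0.0332) were lower only at the looser threshold. Complex I thus had 5 of 7 mitochondrial subunits called lower.

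Among the 3 mitochondrial subunits of complex IV, which form its catalytic core, only mt-Co3 was called. It was at 3543, 4853 and 6418 CPM (lowest, median and highest) in fibrotic and at 7646, 8129 and 11540 CPM in FLO libraries, with no overlap. Its log2 fold change was -0.87 ± 0.16 (SE, edgeR adjusted p = 0.00026). mt-Co1, the copper- and heme-bearing subunit that binds oxygen, was at 16802, 23483 and 30314 CPM in fibrotic and at 26190, 27465 and 31625 CPM in FLO libraries. Fibrotic replicates 1 to 3 lay within the FLO range and replicates 4 to 6 below it, so its log2 fold change of -0.27 ± 0.16 did not pass (edgeR adjusted p = 0.157). mt-Co2, which takes electrons from cytochrome c, had a log2 fold change of -0.19 ± 0.16 and did not pass (edgeR adjusted p = 0.332).

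**Figure D3:**
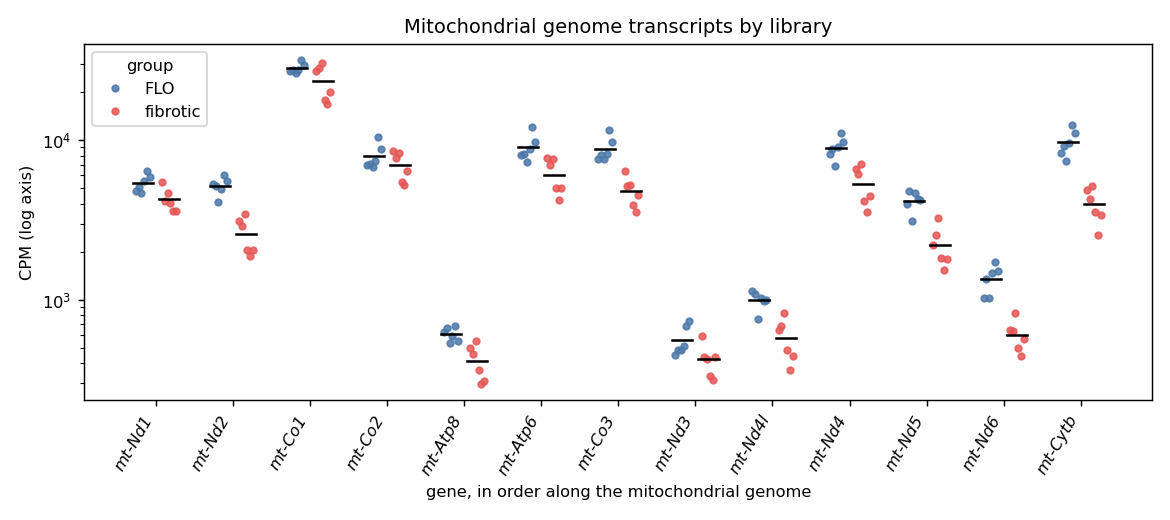
Level of the 13 mitochondrial genes in each library, in CPM on a log axis, in their order along the genome. Points are libraries and black lines group means (n = 6); the groups are separate for mt-Nd2, mt-Co3, mt-Nd6 and mt-Cytb and overlap widely for mt-Co1 and mt-Co2.

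mt-Atp8 and mt-Atp6 encode the membrane subunits of ATP synthase from a single messenger RNA, on which their reading frames overlap by 43 bases at chrM:7927-7969. mt-Nd4l and mt-Nd4 likewise share 7 bases at chrM:10167-10173. These stretches are shown because a read that crosses them lies partly in both genes, with the start codon of the downstream gene in capitals.
mt-Atp8 and mt-Atp6: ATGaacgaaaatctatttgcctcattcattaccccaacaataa
mt-Nd4l and mt-Nd4: ATGctaa
The genes of each pair gave close values, -0.56 for mt-Atp8 and -0.57 for mt-Atp6, and -0.79 for mt-Nd4l and -0.75 for mt-Nd4. mt-Atp8 was called lower (edgeR adjusted p = 0.00542) and mt-Atp6 was not (edgeR adjusted p = 0.0113). Neither call was firm. mt-Atp8 lost its call when fibrotic replicate 4, 5 or 6 or FLO replicate 1, 2, 4 or 5 was left out, with an adjusted p of up to 0.0144. mt-Atp6 gained one without fibrotic replicate 1 or 3 or FLO replicate 3, with an adjusted p of 0.00738 to 0.00898. With all libraries it was also called under upper quartile normalization, without a low-count filter, by DESeq2 and by limma-voom, with an adjusted p of 0.00197 to 0.00956. mt-Nd5 and mt-Nd6 overlap by 14 bases on opposite strands, and the sources used here do not state whether counting used strand.

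Because the falls were unequal, the make-up of the mitochondrial messenger pool differed. mt-Co1 made up 35.9 to 40.2% of the counts on the 13 genes in fibrotic and 28.8 to 34.1% in FLO libraries. mt-Co2 made up 10.7 to 12.1% in fibrotic and 8.13 to 9.50% in FLO libraries. mt-Cytb moved the other way, from 9.69 to 11.3% in FLO to 5.75 to 7.17% in fibrotic libraries. None of these 3 genes had overlapping ranges, while mt-Atp6 held a share of 9.82 ± 0.356% with ethionine and 9.85 ± 0.568% without it (SD, n = 6 each). Per kilobase of gene length, the FLO mean was highest for mt-Co1 at 18276 CPM per kb and lowest for mt-Nd3 at 1608 CPM per kb. In fibrotic livers mt-Co1 was again highest, at 15110 CPM per kb, and mt-Nd6 was lowest, at 1160 CPM per kb. mt-Cytb was at 8449 CPM per kb in FLO livers, above mt-Nd4 at 6492 and mt-Nd1 at 5635. In fibrotic livers it was at 3463 CPM per kb, below mt-Nd4 at 3862 and mt-Nd1 at 4435.

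**Figure D4:**
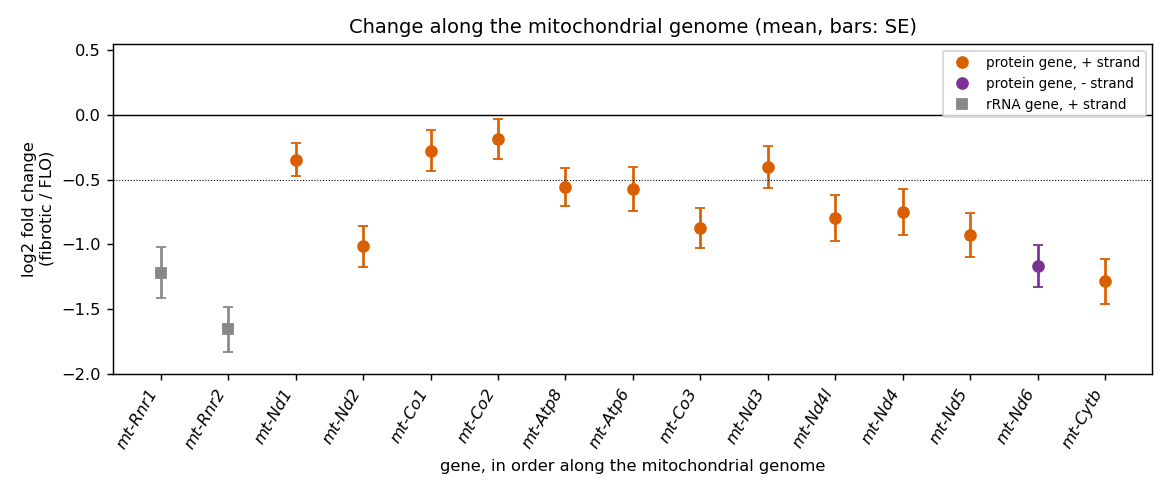
Log2 fold change (fibrotic against FLO, vertical axis, bars SE) of the 13 mitochondrial protein genes and the 2 ribosomal RNA genes, in their order along the mitochondrial genome. The ribosomal RNAs and mt-Cytb, at opposite ends of the order, have the most negative values, mt-Co1 and mt-Co2 the values nearest to 0, and the dotted line marks the fold limit.

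The mitochondrial ribosomal RNAs, which are not members, were also lower, mt-Rnr1 by -1.22 ± 0.20 (SE, edgeR adjusted p = 0.000148) and mt-Rnr2 by -1.66 ± 0.17 (SE, edgeR adjusted p = 1.99e-06). Poly(A) selection keeps little of them, and they took 0.0348% of counts in fibrotic and 0.0848% in FLO livers. The 13 mitochondrial protein transcripts, mt-Nd6 included, went through the same selection, and its part in their values was not tested. None of the 22 mitochondrial tRNA genes had a count. Nuclear copies of mitochondrial sequence can take reads from the true genes. For 5 of the 13 genes another counted gene shared at least 50% of their 31-base words. The largest such case was mt-Nd3, where the chromosome 1 pseudogene Gm28438 shared 98.1% of the words and held 8.10% of the summed counts, so the value of mt-Nd3 is uncertain. The copies of mt-Atp6 and mt-Co3 held 0.333% and 0.279% of the summed counts.

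Nuclear complex III genes split by subunit. Of 8 genes, 3 were called higher and none lower, beside 15.9% and 14% of all tested genes. At an adjusted p of 0.05, as at an unadjusted one (edgeR), 2 were lower, beside 24.8% of all tested genes at the adjusted limit. DESeq2 and limma-voom gave the same counts of 3 and 0. Uqcrfs1, the Rieske iron-sulfur protein that takes electrons from coenzyme Q, was at 489, 540 and 607 CPM (lowest, median and highest) in fibrotic and at 275, 297 and 309 CPM in FLO libraries. The groups were far apart, and the log2 fold change was 0.87 ± 0.08 (SE, edgeR adjusted p = 4.59e-07). Uqcrc1, a core protein facing the matrix, was at 527, 624 and 645 CPM in fibrotic and at 383, 404 and 433 CPM in FLO libraries. It too was separate, with a log2 fold change of 0.60 ± 0.08 (SE, edgeR adjusted p = 1.77e-05), while Uqcrc2, the other core protein, was at 0.07 ± 0.08 (edgeR adjusted p = 0.452). Uqcr10, a small subunit, rose by 0.75 ± 0.12 (SE, edgeR adjusted p = 9.55e-05), from 90.8 to 123 CPM in FLO to 140 to 221 CPM in fibrotic libraries.

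Uqcrh, the acidic hinge protein between cytochrome c1 and cytochrome c, had the lowest value of its nuclear genes, at -0.42 ± 0.12 (SE, edgeR adjusted p = 0.00715), within the fold limit. Uqcr11 was at -0.41 ± 0.12 (edgeR adjusted p = 0.0125). Cyc1, the cytochrome c1 of the complex, is not caught by the symbol rule and was listed with the electron carriers. It was called higher at 0.50 ± 0.08 (SE, edgeR adjusted p = 9.54e-05), close enough to the fold limit to fall under it without fibrotic replicate 1 or 2 or FLO replicate 2, 4 or 6, at 0.47 to 0.49. With all libraries it was also under the limit with RLE or upper quartile normalization and by DESeq2, at 0.48 to 0.49. Complex III therefore held the mitochondrial gene with the largest fall, mt-Cytb, beside nuclear partners with some of the largest rises.

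Nuclear complex IV genes mostly lay above 0. Of 14, 13 had a positive fold change, against 6935 of all 13416 tested genes, and the median was 0.27. Calls were 3 higher and none lower, beside 15.9% and 14% of all tested genes. At an adjusted p of 0.05, 8 were higher and only Ndufa4 was lower, at -0.25 ± 0.09 (edgeR adjusted p = 0.0371). Of all tested genes, 27.3% were higher and 24.8% lower at that threshold. At an unadjusted p under 0.05 (edgeR) 9 were higher and 1 lower, and DESeq2 and limma-voom each called 3 higher and 0 lower. Cox6a1, the form of subunit 6a made outside muscle, was at 559, 613 and 686 CPM (lowest, median and highest) in fibrotic and at 372, 408 and 447 CPM in FLO libraries. These ranges did not touch, and the log2 fold change was 0.59 ± 0.09 (SE, edgeR adjusted p = 3.69e-05). Cox8a, the smallest subunit in its liver form, rose by 0.56 ± 0.09 (SE, edgeR adjusted p = 6.67e-05), from 217 to 274 CPM in FLO to 328 to 403 CPM in fibrotic libraries.

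Cox5a rose by 0.55 ± 0.09 (SE, edgeR adjusted p = 0.000184), from 154 to 200 CPM in FLO to 217 to 300 CPM in fibrotic libraries, and without fibrotic replicate 1 it was just under the fold limit at 0.50. Its partner Cox5b was at 0.48 ± 0.08 (edgeR adjusted p = 0.000194), also with separate groups, and passed the limit without fibrotic replicate 4 or 5 or FLO replicate 3 or 5. Cox4i1, the ubiquitous form of the largest nuclear subunit, was at 0.10 ± 0.09 (edgeR adjusted p = 0.377). Cox6b1 was at 0.23 ± 0.09 (edgeR adjusted p = 0.0439). Among pairs of isoforms, the heart and muscle form Cox7a1 was at 0.34 ± 0.24 and its ubiquitous counterpart Cox7a2 at 0.10 ± 0.11, neither passing. Ndufa4l2, a relative of Ndufa4 induced by low oxygen, was scarce at 1.89 to 3.05 CPM in FLO and 2.68 to 4.18 CPM in fibrotic libraries, with a log2 fold change of 0.55 ± 0.18 (edgeR adjusted p = 0.0169). The muscle forms Cox6a2 and Cox8b, under the count minimum, held 44 and 8 counts in FLO replicate 2 and 144 and 44 in FLO replicate 3, against 0 to 7 and 0 to 1 in the other libraries.

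**Figure D5:**
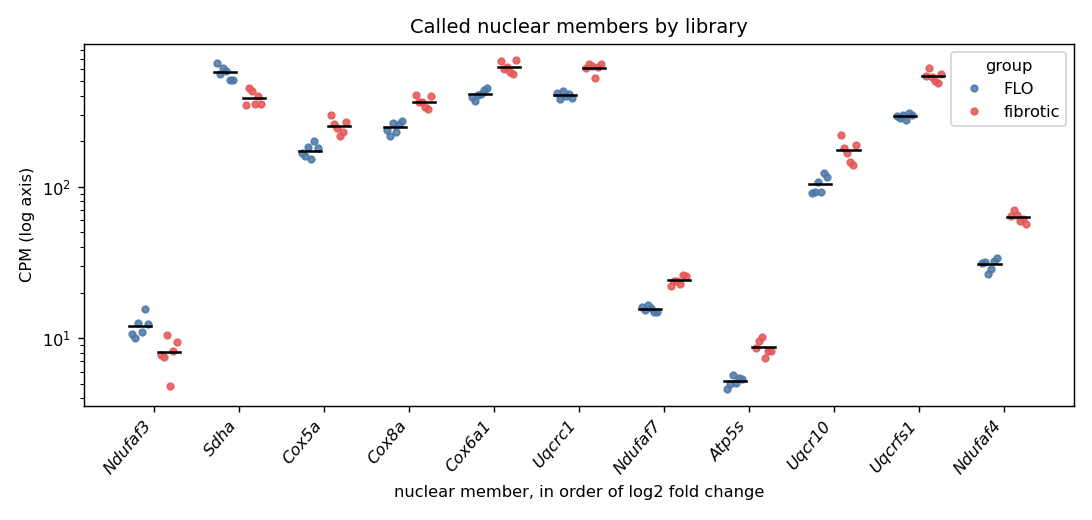
Level of the 11 called nuclear genes in each library, in CPM on a log axis, ordered by log2 fold change. Points are libraries and black lines group means (n = 6); the groups are separate for all but Ndufaf3.

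None of the 36 nuclear complex I subunits was called in either direction with all libraries, by edgeR, DESeq2 or limma-voom. At an unadjusted p under 0.05 (edgeR), 12 were higher and 6 lower. The same counts, 12 and 6, passed at an adjusted p of 0.05, beside 27.3% and 24.8% of all tested genes. The median log2 fold change of the 36 was 0.05, and values ran from -0.35 for Ndufv3 to 0.46 for Ndufs4. Ndufs4, an accessory subunit of the NADH-oxidizing arm whose loss causes mitochondrial disease, was at 65.1, 70.6 and 81.2 CPM (lowest, median and highest) in fibrotic and at 46.6, 52.1 and 58.4 CPM in FLO libraries. Its groups were separate (0.46 ± 0.08, edgeR adjusted p = 0.000199). Ndufv3, another accessory subunit of that arm, was at 41.2 to 55.3 CPM in fibrotic and 51.7 to 70.9 CPM in FLO libraries, with overlap (-0.35 ± 0.10, edgeR adjusted p = 0.00579). Ndufa10 and Ndufa9 lay lower with separate groups, at -0.31 and -0.19.

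Among the subunits that carry the electron path of complex I, named after their values were seen, Ndufs7 was at 0.39 ± 0.10 (edgeR adjusted p = 0.00444) and Ndufs1 at -0.28 ± 0.10 (edgeR adjusted p = 0.0282), while Ndufv1 was at 0.00 ± 0.08. Ndufb8 passed the fold limit without FLO replicate 3, and Ndufa12 did so without fibrotic replicate 3 or FLO replicate 5. Ndufb4 and Ndufa12 are uncertain, because the processed pseudogenes Ndufb4c and Gm15920, which share 38.3% and 21.2% of their 31-base words, held 59.3% and 55.4% of the summed counts of the pair.

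Assembly factors put complex I together and are not part of the finished enzyme. Of 8, 2 were called higher and 1 lower, beside 15.9% and 14% of all tested genes. The summed level of the 8 was 140 to 165 CPM in fibrotic and 109 to 124 CPM in FLO livers, without overlap. Without the genes called higher, a split drawn from these same values, the other 6 together averaged 70.2 CPM in fibrotic and 69.8 CPM in FLO livers. Among these 6 the fibrotic mean was higher for Ndufaf5, Ndufaf6 and Ndufaf8 and lower for Ndufaf1, Ndufaf2 and Ndufaf3. The near-equal sum thus combines changes in both directions. Ndufaf4 had the largest rise of all members. It was at 56.4, 62.7 and 70.3 CPM (lowest, median and highest) in fibrotic and at 26.4, 31.6 and 34.0 CPM in FLO libraries, with a log2 fold change of 1.03 ± 0.08 (SE, edgeR adjusted p = 1.09e-07). The lowest fibrotic library was far above the highest FLO library. Ndufaf7, a methyltransferase of the mitochondrial matrix, rose by 0.62 ± 0.07 (SE, edgeR adjusted p = 4.76e-06), from 14.8 to 16.6 CPM in FLO to 22.0 to 26.2 CPM in fibrotic libraries.

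Ndufaf3, which works together with Ndufaf4 early in assembly, was called lower. It was scarce, at 4.82 to 10.5 CPM in fibrotic and 9.93 to 15.5 CPM in FLO libraries, with a log2 fold change of -0.58 ± 0.16 (SE, edgeR adjusted p = 0.00715). The ranges overlapped. The call was lost when fibrotic replicate 1, 2, 4 or 5 or FLO replicate 3, 4, 5 or 6 was left out, with log2 fold changes of -0.61 to -0.46.

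Complex II, succinate dehydrogenase, also serves the citric acid cycle. Sdha, its flavoprotein that oxidizes succinate, was at 348, 378 and 451 CPM (lowest, median and highest) in fibrotic and at 507, 571 and 662 CPM in FLO libraries. The ranges were separate, and Sdha fell by 0.55 on the log2 scale (SE 0.10, edgeR adjusted p = 0.000271). Sdhb, the iron-sulfur subunit, and Sdhc, a membrane anchor, did not pass, at -0.16 ± 0.10 and -0.10 ± 0.07. Sdhd, the other membrane anchor, was at 0.31 ± 0.10 (edgeR adjusted p = 0.0219), with 175 to 276 CPM in fibrotic and 175 to 221 CPM in FLO libraries.

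Of the 17 complex V genes, 1 was called higher and none lower, beside 15.9% and 14% of all tested genes. At an adjusted p of 0.05 the counts were 6 and 1, beside 27.3% and 24.8%. At an unadjusted p under 0.05 (edgeR) they were 8 and 1, and DESeq2 and limma-voom each called 1 higher and 0 lower. The called gene, Atp5s, encodes a coupling factor B-like protein rather than a subunit of the enzyme core. It was scarce, at 7.39 to 10.2 CPM in fibrotic and 4.59 to 5.69 CPM in FLO libraries, and rose by 0.75 ± 0.11 (SE, edgeR adjusted p = 4.17e-05). Atp5b, the catalytic beta subunit, was at 1846, 1899 and 2118 CPM (lowest, median and highest) in fibrotic and at 1392, 1472 and 1621 CPM in FLO libraries. The groups were separate, with a log2 fold change of 0.37 ± 0.09 (edgeR adjusted p = 0.0019) within the fold limit. Atp5d, the delta subunit of the central stalk, was similar at 0.44 ± 0.09 (edgeR adjusted p = 0.000706), and Atp5a1, the alpha subunit that pairs with Atp5b, was at 0.04 ± 0.09 (edgeR adjusted p = 0.755).

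Atp5g1, Atp5g2 and Atp5g3 encode the same mature subunit c of the rotor ring from different genes. Their log2 fold changes were -0.28 ± 0.10 (edgeR adjusted p = 0.0266), -0.08 ± 0.10 (edgeR adjusted p = 0.484) and 0.30 ± 0.09 (edgeR adjusted p = 0.012). Atp5g3 had the most counts of these genes, with a fibrotic mean of 493 ± 53.8 CPM and a FLO mean of 400 ± 28.7 CPM (SD, n = 6 each). For Atp5g1 the means were 68.6 ± 10.8 CPM and 83.3 ± 6.17 CPM. The processed pseudogene Gm10039 shared 7.56% of the 31-base words of Atp5g1 and held 53.3% of the summed counts of the pair. The value of Atp5g1 is therefore uncertain.

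Promoter sequences were examined because NRF1, GABPA (an ETS factor) and YY1 are known regulators of nuclear respiratory genes. RefSeq windows (GRCm38.p6, 250 bases before to 50 after the start) were found for 73 of the 87 nuclear genes. The palindromic NRF1 core CGCATGCG was present in 11 of the 73 (15.1%), against 4.21% of the tested genes and 2.77% of all protein-coding genes with a window. The YY1 site AAGATGGC, on either strand, was also present in 11 (15.1%), against 5.17% and 3.57%. The ETS site CCGGAAGT, on either strand, was present in 5 (6.85%), against 8.89% and 5.69%. Of the 9 genes called higher, 3 held the NRF1 core, 1 the ETS site and 0 the YY1 site. The windows below are from before the start, 5′ to 3′ on the gene's strand with the NRF1 core in capitals. They come from Ndufaf4 and Cox6a1, both called higher, and from Ndufa11, an accessory subunit of complex I, and Atp5l, subunit g of ATP synthase, which did not pass.
Ndufaf4 (chr4:24897945-24898004, plus strand): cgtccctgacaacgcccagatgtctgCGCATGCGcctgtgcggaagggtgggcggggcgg
Cox6a1 (chr5:115349086-115349145, minus strand): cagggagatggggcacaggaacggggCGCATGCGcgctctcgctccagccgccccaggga
Ndufa11 (chr17:56717677-56717736, plus strand): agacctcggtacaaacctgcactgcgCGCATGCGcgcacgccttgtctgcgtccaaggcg
Atp5l (chr9:44920933-44920992, minus strand): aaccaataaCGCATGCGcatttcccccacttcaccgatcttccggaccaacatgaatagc
The log2 fold changes of Ndufa11 and Atp5l were 0.07 ± 0.11 and -0.21 ± 0.10, so the same letters stood before genes that were and were not called. These windows are examples, and the part of the sites in the changes was not tested.

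Genes that transcribe and process mitochondrial RNA were followed beside the transcripts they act on. Of 29 tested, 12 were higher and 8 lower at an unadjusted p under 0.05 (edgeR), with a median of -0.04. That limit was passed by at least 27.3% and 24.8% of all tested genes. By edgeR 7 were called higher and none lower, beside 15.9% and 14% of all tested genes. Tefm, the mitochondrial transcription elongation factor, had the highest value among these at 0.81 ± 0.11 (SE, edgeR adjusted p = 1.68e-05) and Fastkd3, an RNA-binding protein, the lowest at 0.57 ± 0.13 (SE, edgeR adjusted p = 0.00211), falling within the fold limit without fibrotic replicate 4, at 0.46. Polrmt, the mitochondrial RNA polymerase, was at 0.46 ± 0.07 (edgeR adjusted p = 5.03e-05) and Tfam, which packages mitochondrial DNA and starts transcription, at 0.32 ± 0.08 (edgeR adjusted p = 0.00425), both within the fold limit. The list as a whole had no common direction, with 14 genes above 0 and 15 below. At an adjusted p of 0.05, 11 were higher and 6 lower, beside 27.3% and 24.8% of all tested genes.

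Of 14 mitochondrial DNA maintenance genes, none was called higher and 4 were called lower by edgeR, beside 15.9% and 14% of all tested genes. The median of the 14 was -0.06, and 2 were higher and 5 lower at an unadjusted p under 0.05 (edgeR). At least 27.3% and 24.8% of all tested genes passed that limit. Polg2, the accessory subunit of the mitochondrial DNA polymerase, was lowest at -1.34 ± 0.14 (SE, edgeR adjusted p = 1.75e-06). Ssbp1, the single-stranded DNA-binding protein of mitochondria, was the least changed of the 4 at -0.53 ± 0.13 (SE, edgeR adjusted p = 0.00352), and lost its call without fibrotic replicate 4 or 5 or FLO replicate 3 or 5, at -0.47. Among 11 regulators of mitochondrial biogenesis, only Esrra, a nuclear receptor that drives respiratory genes, was called, at 0.92 ± 0.08 (SE, edgeR adjusted p = 3e-07). Its coactivator Ppargc1a was at 0.64 ± 0.23 (edgeR adjusted p = 0.0317) and passed without FLO replicate 1.

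Assembly factors outside the symbol rule were 46, of which 8 were called higher and 7 lower, with a median of 0.11. Both counts were near the shares of all tested genes, 15.9% called higher and 14% called lower. Cox10, which makes the precursor of heme a for complex IV, was highest at 1.34 ± 0.10 (SE, edgeR adjusted p = 8.39e-08). Cox18, which inserts mt-Co2 into the membrane, was lowest at -0.83 ± 0.15 (SE, edgeR adjusted p = 0.000229). Of 13 genes of coenzyme Q synthesis 2 were called higher and 1 lower (median 0.07), from Coq4 at 1.11 ± 0.10 to Coq10a at -1.15 ± 0.16. Of 13 electron carriers and entry points, Cyc1 was called higher and 3 were called lower (median -0.21). The lowest was Sardh, the mitochondrial sarcosine dehydrogenase, at -1.51 ± 0.15 (SE, edgeR adjusted p = 1.06e-06), while Cycs, cytochrome c itself, was at 0.14 ± 0.07 (edgeR adjusted p = 0.113).

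Of 18 genes of the citric acid cycle and pyruvate dehydrogenase, 4 were called higher and 2 lower, with a median of 0.23. The shares of all tested genes were 15.9% and 14%. Idh3a, the catalytic subunit of NAD-dependent isocitrate dehydrogenase, was at 1.33 ± 0.11 (SE, edgeR adjusted p = 1.54e-07) and Dlat, the acetyltransferase of pyruvate dehydrogenase, at -1.14 ± 0.11 (SE, edgeR adjusted p = 1.06e-06). Of 22 genes used as markers of mitochondrial mass, 3 were called higher and 2 lower, with a median of 0.20. They ran from Slc25a5, an ADP/ATP carrier, at 1.28 ± 0.11 (SE, edgeR adjusted p = 1.89e-07) to Slc25a13, the aspartate/glutamate carrier, at -1.07 ± 0.10 (SE, edgeR adjusted p = 5.01e-07).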

How the data were processed

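For 12 libraries the authors deposited unnormalized read counts by Ensembl gene identifier, as whole numbers. The submitters' processing notes name bcl2fastq, STAR 2.7.3a and mm10, and the methods name PISCES for quantification. The annotation and the use of strand in counting are not given in the sources used here. Symbols, biotypes and coordinates came from GENCODE M21 (GRCm38, the build also called mm10), and 51745 of 56205 identifiers matched a symbol. Total counts per library were 17815568 to 24814263, and libraries of a group differed by more than sampling noise (smallest chi-square per degree of freedom 10.3).

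Tests used edgeR 4.0.16 in R 4.3.3 (robust quasi-likelihood fit, TMM, filterByExpr) over all 13416 genes that passed the filter, with the thresholds of the study. CPM use TMM-scaled library sizes. An SE is the absolute log2 fold change divided by the square root of F. The steps were tested on artificial counts. Named were all 13 mitochondrial genes, every called nuclear gene, the highest and lowest gene of each complex, isoform pairs, and the highest and lowest called gene of each pathway list with Cyc1, Cycs, Tfam, Polrmt and Ppargc1a. Other names were added after their values were seen. Members and lists were chosen with earlier results of these data known. Alternatives used DESeq2 1.42.0 and limma 3.58.1 among others. Nothing shows that mice of a group came from separate litters or cages. Of the complex I subunits, 1 is counted and plotted but its own result is not reported here.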

Additional observations from a re-analysis of the deposited data

Results flagged for a closer look

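In 76 groups of 6 libraries, 1 library was far from the others in 2 cases, by the ratio of its gap to the range of the group, where chance alone gives about 3.8 (5%). Sdhd in FLO livers was highest in replicate 3, at 221 CPM against 185 CPM in the next library (ratio 0.786). Uqcrc1 in fibrotic livers was lowest in replicate 4, at 527 CPM against 607 CPM in the next library (ratio 0.679). FLO replicate 3 is the library with the female pattern of Xist and Ddx3y and the most muscle transcripts, and the part of either in its Sdhd level was not tested.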

How the results depend on the processing

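Over 22 alternative fits, 17 to 21 members were called and all 13 mitochondrial genes stayed negative. None of the 56 members past an adjusted p of 0.05 changed sign, and of the other 44 members 11 did, none with a log2 fold change beyond 0.05. The median of all tested genes, 0.03, was -0.0024 under upper quartile normalization. Of the values of 79 genes printed and followed through these fits, 1682 kept their side of the thresholds, 33 lost the call, 17 gained one and 6 changed sign. The sign changes were those of Atp5a1 without fibrotic replicate 2 and of Ndufv1 without fibrotic replicate 1, 4 or 5, FLO replicate 3, or FLO replicates 2 and 3 (0.0236). Leaving out 1 library gave -0.00689 to 0.0689 for Atp5a1 and -0.0281 to 0.0346 for Ndufv1. Values of other printed genes, the marker sums and the levels were not recomputed. At an adjusted p of 0.05 with no fold limit, 33 members were higher and 23 lower, beside 27.3% and 24.8% of all tested genes. The members were 12 and 6 complex I subunits, 3 and 1 assembly factors, 1 and 1 genes of complex II, 3 and 2 of complex III, 8 and 1 of complex IV, 6 and 1 of complex V, and 0 and 11 mitochondrial genes. At 0.01 with no fold limit, 19 members were higher, 7 complex I subunits higher and 2 lower, 1 lower in complex III and 3 higher in complex V. The total of members lower at this limit is not given here. The shares of all tested genes at this limit were not computed, and are at least the 15.9% and 14% that also passed the fold limit. Leaving out 1 library gave 0 to 1 complex I subunits higher and 0 to 1 assembly factors lower. Leaving out FLO replicates 2 and 3 together, chosen after seeing the data, gave 18 members called, 17 of them shared, with 1 complex I subunit (Ndufb8) higher and 0 assembly factors lower. Without FLO replicate 3 alone, 21 members were called, 18 of them shared.

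Same-numbered libraries did not deviate together (correlations -0.16 to 0.10). With the replicate block, 18 members were called, all shared, mt-Nd4 losing its call (adjusted p = 0.0108), and 3780 of all genes against 4012. Fold changes of members under about 10 CPM (Atp5s, Ndufaf3, Ndufa4l2, Cox7a1, Ndufaf2, Ndufaf5) rest on the fewest counts. No batch is named in the labels.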

Other observations

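Genes that bear on coupling between respiration and ATP synthesis lay outside the comparisons above. Of 5 tested identifiers in this list, 2 were called higher and 2 lower, beside 15.9% and 14% of all tested genes. Ucp2, an uncoupling protein of the inner membrane that macrophages and other non-parenchymal cells also express, was at 278 ± 88.1 CPM in fibrotic and 117 ± 28.3 CPM in FLO livers (SD, n = 6 each). Its groups were separate and its log2 fold change was 1.25 ± 0.21 (SE, edgeR adjusted p = 0.000186). Atpif1, the inhibitory factor of ATP synthase, was at 22.0 ± 3.26 CPM and 11.9 ± 1.37 CPM (SD, n = 6 each), again with separate groups, and rose by 0.89 ± 0.11 (SE, edgeR adjusted p = 9.1e-06). Nnt, the gene of the proton-driven transhydrogenase, is listed under 2 overlapping identifiers, which makes its split of counts uncertain. Both were called lower, at -1.35 and -1.43, and whether this strain makes a working Nnt protein was not tested. Ucp3, a scarce relative of Ucp2 best known in muscle, was at 1.83 ± 0.66 (edgeR adjusted p = 0.0309) and was not called, though it was without fibrotic replicate 4 (2.07, adjusted p = 0.00935).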
